A study of Pistacia vera with 20 samples.

Results

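AP2 and ERF transcription factors of pistachio (Pistacia vera) are described here in the hull, the exocarp and mesocarp that enclose the shell. The members are the genes whose deposited description names the AP2 domain, Pfam family PF00847. There were 121 of them among 39783 genes, on 20 contigs of the assembly behind the deposited table. RNA from whole hulls of orchard-grown Golden Hills and Lost Hills trees was sequenced in 20 libraries. At 133 days post anthesis there were tattered Golden Hills hulls, cracked Lost Hills hulls, and intact hulls of each cultivar (n = 3 libraries in each of the 4 groups). At 91 days there were intact hulls of Golden Hills and of Lost Hills (n = 4 each). Tattering was sampled in Golden Hills and cracking in Lost Hills, so the kind of split and the cultivar cannot be told apart. The labels call the replicates bioreps and say nothing of the trees or fruits behind them, so p-values measure the spread between these libraries.

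The AP2 domain is a plant DNA-binding fold. AP2-like proteins, most with a pair of such domains, act in flower, seed and organ growth. DREB proteins, with a single domain, bind the dehydration-responsive element and many respond to cold or drought. ERF proteins bind the GCC box, and many respond to ethylene, jasmonate, wounding or pathogens. In Arabidopsis, ERF group VII proteins are degraded in the presence of oxygen and nitric oxide and act in the low-oxygen response, group VIII holds repressors with an EAR motif, group IX holds defence regulators, and group X holds wound-responsive genes such as ABR1, ERF113 (RAP2.6L) and ERF109. SHINE proteins raise cuticle synthesis, cytokinin response factors act in cytokinin and growth responses, and RAV proteins add a B3 domain. In fleshy fruits ERF proteins are known for acting downstream of ethylene in ripening.

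The names are best protein matches in the deposited table, 102 of the 121 to Arabidopsis thaliana, and do not establish orthology. Several members share a symbol and are told apart by their deposited identifier. By protein name there were 38 DREB members, 19 of group IX, 17 AP2-like, 12 of group VIII, 11 of group X, 9 other named ERF members, 6 cytokinin response factors, 5 of SHINE type, 2 of group VII and 2 RAV. SHINE type holds 3 genes with a SHINE or WIN1 name, all untested, and 2 tested genes named ERF003. The ERF003 genes were placed there by number alone and were not shown to be SHINE proteins. The deposited family column placed 105 of them in the ERF, 14 in the AP2 and 2 in the RAV class. It also gave an AP2/ERF class to 6 genes without the domain, which are not members.

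Values are FPKM, the authors' deposited unit of fragments per gene length and library size. They came out as whole reads, from 16116971 to 18609861 per library with a median of 17244126.5. A gene was tested when at least 3 libraries reached 1 FPKM, which is 17.6 reads at the median member length of 986 bases. That left 72 members of 19716 tested genes. Each tested member reached 1 FPKM in libraries of more than 1 group, and 56 did so in all 6 groups. Fold changes are differences of log2(FPKM + 1), which understates those of weakly expressed genes. A member counts as called where limma, fitted to all 20 libraries at once, gave it a p below 0.05 after Benjamini-Hochberg adjustment over the tested genes of that comparison.

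A few libraries stood apart. Genes of 1 cultivar were taken at 133 d, from those with at least 5 FPKM in all its libraries and at most 3 reads in each library of the other, and kept where their median was at least 5 FPKM in its 91 d libraries. Among 14 such Golden Hills genes, Lost Hills replicate 2 at 91 d held a median of 36.9% of the Golden Hills level of that age. Among 12 such Lost Hills genes, Golden Hills replicates 2 and 3 at 91 d held 27.1% and 9.15%, while every other 91 d library of the opposite cultivar lay between 0% and 1.18%. Replicate 1 of intact Lost Hills at 133 d stood apart in the DREB members described below. Of the tissue markers, 75 epidermis and cuticle genes summed to 6251 to 8099 FPKM in tattered Golden Hills hulls, against 2951 to 4477 FPKM in intact ones at 133 d. They summed to 2952 to 4614 FPKM in cracked Lost Hills hulls, against 2148 to 3677 FPKM in intact ones. Of 23 shell and xylem markers, 14 had no read in either Golden Hills group at 133 d. Their sum was 7.04 to 9.08 FPKM in tattered hulls and 5.27 to 6.54 FPKM in intact hulls. The 26 seed markers summed to 98.6 to 122 FPKM in tattered and 112 to 147 FPKM in intact Golden Hills hulls at 133 d. Their sums were 133 to 247 FPKM in cracked and 151 to 203 FPKM in intact Lost Hills hulls. At 91 d they were 187 to 274 FPKM in Golden Hills and 168 to 233 FPKM in Lost Hills. Where these seed-named genes were expressed was not tested.

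RAP2-2 (evm_TU_ptg000021l_402), a group VII factor, was the most abundant member and was called in none of the 8 comparisons. It had 516, 662 and 648 FPKM in tattered and 567, 503 and 496 FPKM in cracked hulls. Intact hulls at 133 d had 596, 623 and 646 FPKM in Golden Hills and 667, 557 and 623 FPKM in Lost Hills. At 91 d the values were 572, 496, 507 and 618 FPKM in Golden Hills and 738, 476, 689 and 607 FPKM in Lost Hills. All 20 values lay between 476 and 738 FPKM, with no group apart from the rest. The other member placed in group VII by its name was RAP2-3 (evm_TU_ptg000022l_2362). It had 87.1 ± 24.8 FPKM in intact Golden Hills hulls at 133 d (SD, n = 3) and 56.8 ± 15.4 at 91 d (SD, n = 4). RAP2-3 was called between these ages (log2 fold change 0.61, SE 0.21, adjusted p = 0.0278). Both genes placed in group VII by name had log2 changes between -0.24 and 0.06 in the 2 split comparisons, and neither was called there.

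Averaged over the 6 group means, 6 members reached 100 FPKM, 32 lay between 10 and 100, 28 between 1 and 10, and 55 below 1. The 6 highest were RAP2-2, a pair named RAP2-4 (DREB type, known in Arabidopsis for light and drought responses), ERF106 of group IX, RAV1 (a regulator of leaf senescence in Arabidopsis) and the group VIII repressor ERF4 (evm_TU_ptg000019l_2157). Of the 49 untested members, 12 had no read in any library, and the highest value of any of them in 1 library was 1.97 FPKM. Over all members, 26 had at most 3 reads in every library, a level at which presence and absence are not separable at this depth. The untested members held the AP2-like growth regulators ANT, AIL1, AIL6 and PLT2, all 3 of the named SHINE regulators (SHN2 and 2 genes named WIN1, at most 15 reads in a library), the abscisic acid regulator ABI4 and 5 of the 11 group X genes. Of the 72 tested members, 37 were called in at least 1 comparison between a pair of groups and 35 in none of the 8 comparisons.

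In tattered hulls the AP2 and ERF genes that were called all rose in FPKM. However, 3 were called lower under TPM scaling or array weights, 2 with only these groups in the fit and 1 under scaling to library totals. The 3 largest changes were those of ERF114, ERF113 and ABR1 of group X, and the other 3 tested group X genes were not called. Of 72 tested members 13 were called higher and 0 lower in tattered than in intact Golden Hills hulls at 133 d, which is 18.1% of them, against 16.6% of all tested genes (9.29% higher and 7.35% lower). Before adjustment, 25 members had a p below 0.05. The median log2 change of the tested members was 0.36, against 0.013 over all tested genes. Called members were 5 of 25 DREB genes, 3 of 6 in group X, 2 of 13 in group IX, and 1 each in group VIII, SHINE type and RAV. None of 9 AP2-like genes, 5 cytokinin response factors or 2 group VII genes was called. In whole hulls a change in the share of cells of a type and a change in RNA per cell cannot be told apart. The epidermis marker sum was also higher in all tattered libraries (values above), and its part in these results was not tested.

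ERF114 (evm_TU_ptg000019l_1188, contig ptg000019l, 7844322 to 7847222) had the largest change. Its Arabidopsis namesake promotes axillary bud growth. It had 16.9, 21.5 and 18.8 FPKM in tattered hulls, against 0.663, 0.224 and 0.950 FPKM in intact Golden Hills hulls of the same age. The lowest tattered library was far above the highest intact one. The means were 19.04 ± 2.29 and 0.612 ± 0.366 FPKM (SD, n = 3 each), a log2 fold change of 3.66 (SE 0.20, adjusted p = 9.4e-10). At 91 d this gene was as low, at 0.643, 0.628, 0.426 and 0.510 FPKM in Golden Hills and 0.502, 0.631, 0.898 and 0.649 FPKM in Lost Hills. A second gene named ERF114 (evm_TU_ptg000009l_1314) had 33.9, 44.2 and 40.1 FPKM in tattered hulls, against 31.4, 20.2 and 22.1 FPKM in intact hulls, and was not called.

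ERF113 (evm_TU_ptg000019l_2509, ptg000019l, 19650614 to 19652128), which in Arabidopsis acts in the rejoining of cut tissue, had 8.30, 19.2 and 12.5 FPKM in tattered hulls, against 0.713, 1.12 and 1.76 FPKM in intact hulls. The groups did not overlap, and the log2 fold change was 2.66 (SE 0.35, adjusted p = 6.9e-05). ABR1 (evm_TU_ptg000013l_478, ptg000013l, 4921711 to 4923422), a repressor of abscisic acid responses in Arabidopsis, had 4.56, 5.83 and 6.45 FPKM in tattered hulls, against 0.0440, 0.165 and 0.170 FPKM in intact hulls. Its intact libraries held at most 4 reads each, so its log2 fold change of 2.55 (SE 0.38, adjusted p = 2.3e-04) depends on the 1 FPKM added. ERF109, the redox- and jasmonate-responsive gene of this group (evm_TU_ptg000020l_2230), had 7.78, 10.1 and 11.4 FPKM in tattered hulls and 9.04, 10.9 and 7.76 FPKM in intact hulls. Those groups overlapped. ERF110 (evm_TU_ptg000001l_3581) had 67.03, 121 and 127 FPKM in tattered hulls, against 34.1, 30.5 and 22.9 FPKM in intact hulls. Its groups did not overlap, yet it was not called.

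**Figure D1:**
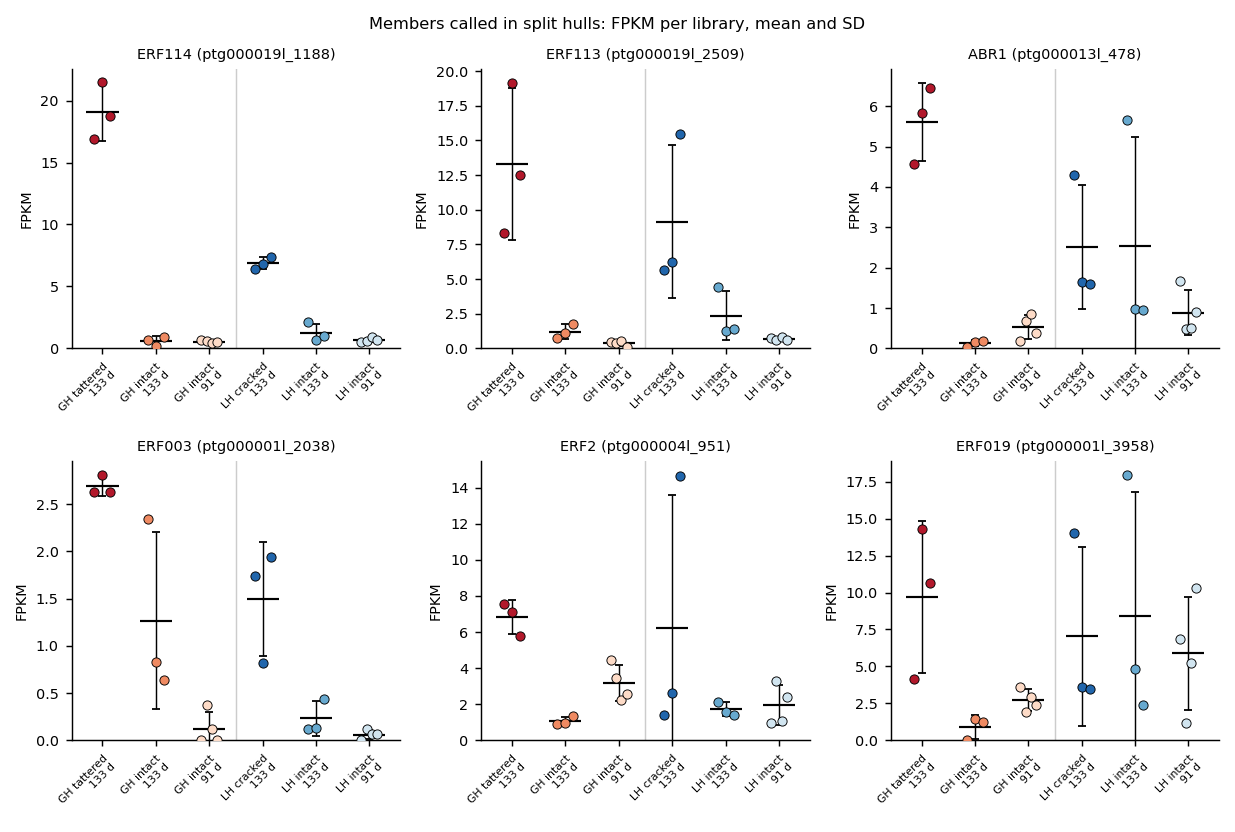
FPKM of 6 members called in split hulls, 1 point per library, for tattered and intact Golden Hills (GH) and cracked and intact Lost Hills (LH) hulls at 133 d and intact hulls at 91 d. Horizontal lines are group means and bars are 1 SD, with bars ending at 0 where they would pass below it. ERF114 stands at 16.9 FPKM or more in tattered hulls and at 6.42 or more in cracked hulls, while every intact library lies at 2.10 or less.

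Group IX, DREB, group VIII, RAV and SHINE-type genes made up the rest. ERF2 (evm_TU_ptg000004l_951), a GCC-box binding activator in group IX, had 7.56, 7.13 and 5.79 FPKM in tattered hulls, against 0.928, 0.944 and 1.35 FPKM in intact hulls (log2 fold change 1.92, SE 0.47, adjusted p = 0.0102). Those groups did not overlap. The DREB member ERF019 (evm_TU_ptg000001l_3958) had 4.18, 14.3 and 10.6 FPKM in tattered hulls, against 0, 1.48 and 1.27 FPKM in intact hulls. It was called at a log2 fold change of 2.45 (SE 0.65, adjusted p = 0.0169), with no overlap and a spread of more than 3-fold within the tattered group. ERF12 (evm_TU_ptg000017l_1777), a group VIII repressor, had 6.07, 5.69 and 7.03 FPKM in tattered hulls, against 3.04, 2.33 and 2.21 FPKM in intact hulls (log2 fold change 1.05, SE 0.28, adjusted p = 0.0188). RAV1 (evm_TU_ptg000024l_443) had 148, 147 and 135 FPKM in tattered hulls, against 60.8, 93.9 and 73.7 FPKM in intact hulls (log2 fold change 0.92, SE 0.28, adjusted p = 0.0346). It was the called member with the highest level in tattered hulls.

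The remaining called members were DREB genes ERF016, ERF023, ERF061 and ERF013, group IX ERF14, and SHINE-type ERF003 (evm_TU_ptg000001l_2038, placed there by number alone). Their log2 fold changes lay between 0.78 and 1.82. ERF016 (evm_TU_ptg000001l_1021) had 7.60, 39.6 and 27.0 FPKM in tattered hulls, against 2.89, 7.29 and 5.90 FPKM in intact hulls, with an adjusted p of 0.0477. ERF023 (evm_TU_ptg000001l_4468) had 21.3, 49.1 and 42.5 FPKM in tattered hulls, against 10.9, 16.7 and 12.1 FPKM in intact hulls, with an adjusted p of 0.0419. Both calls are close to the threshold and were kept in 9 and 19 of 32 alternative settings. ERF003 had 2.63, 2.81 and 2.63 FPKM in tattered hulls, against 2.34, 0.825 and 0.638 FPKM in intact hulls, so the intact group held 1 library near the tattered level.

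The count rested on few libraries. It was 4 without tattered replicate 3 (5.56% of the members, against 11.9% of all tested genes) and 5 without tattered replicate 2 (6.94%, against 8.57%). It was 6 without intact replicate 3 (8.33%, against 13.2%) and 8 without intact replicate 1 (11.1%, against 10.9%). ERF019 was not called without tattered replicate 2 or 3 or intact replicate 1, and ERF12 not without replicate 3 of either group, while ERF114, ERF113, ABR1 and ERF2 were called in all 31 alternative settings in which they were tested. With a mean of at least 5 FPKM required, 7 of 52 members were called (13.5%, against 19.2% of genes), and with array weights 23 of 72 (31.9%, against 29.4%). Scaling to TPM lowered the median of all genes by 0.12 on the log2 scale, and 7 members were then called higher and 3 lower.

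In cracked hulls of Lost Hills 3 members rose, the same ERF114, ERF113 and ERF003 genes as in tattered hulls. Of 72 tested members, 3 were called higher and 0 lower, 4.17%, against 1.56% of all tested genes (1.48% higher and 0.0812% lower), and 9 were below 0.05 before adjustment. The median log2 change was -0.09, against -0.007 over all tested genes. ERF114 (evm_TU_ptg000019l_1188) had 6.42, 6.81 and 7.39 FPKM in cracked hulls, against 2.10, 0.687 and 1.01 FPKM in intact Lost Hills hulls at 133 d (log2 fold change 1.84, SE 0.20, adjusted p = 3.8e-05). ERF113 had 5.66, 6.24 and 15.5 FPKM in cracked hulls, against 4.41, 1.27 and 1.37 FPKM in intact hulls (log2 fold change 1.59, SE 0.35, adjusted p = 0.0235). ERF003 (evm_TU_ptg000001l_2038) had 1.74, 0.815 and 1.94 FPKM in cracked hulls, against 0.123, 0.131 and 0.442 FPKM in intact hulls (log2 fold change 1.00, SE 0.23, adjusted p = 0.0302). All intact values of ERF003 lie below 1 FPKM, so its fold change depends on the 1 FPKM added. None of the 3 genes overlapped between the groups. In all 3, replicate 1 or 3 of intact hulls was the highest of its group.

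The 5 uncalled members with the smallest p were shown for their values. ERF062 (evm_TU_ptg000022l_1407), a DREB gene, had 6.501, 6.58 and 6.92 FPKM in cracked hulls, against 1.97, 4.01 and 2.66 FPKM in intact hulls, and did not overlap (log2 fold change 1.02, SE 0.27, adjusted p = 0.0709). A pair of neighbouring genes named ERF017 had negative differences, with 10.05, 6.22 and 4.22 FPKM in cracked hulls, against 57.8, 25.7 and 22.6 FPKM in intact hulls for evm_TU_ptg000001l_1019 (log2 fold change -2.16, adjusted p = 0.183). The second, evm_TU_ptg000001l_1020, had 11.01, 4.74 and 5.15 FPKM in cracked hulls, against 58.0, 24.5 and 20.3 FPKM in intact hulls (log2 fold change -2.08, adjusted p = 0.105). In both the groups did not overlap, and the spread among intact hulls was more than 2-fold. ERF1B (evm_TU_ptg000022l_2220), which joins ethylene and jasmonate signals in Arabidopsis, had 3.33, 7.05 and 17.1 FPKM in cracked hulls and 3.30, 1.23 and 3.89 FPKM in intact hulls (adjusted p = 0.269). AP2-1 (evm_TU_ptg000027l_683) had 29.7, 31.1 and 23.2 FPKM in cracked hulls and 71.04, 28.2 and 33.2 FPKM in intact hulls (adjusted p = 0.469). Those last 2 genes overlapped between the groups.

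Cracking calls depended on how the spread was estimated. With only the 2 groups in the fit, 0 members were called (limma, 8 below 0.05 before adjustment), and ERF114 had an adjusted p of 0.13. Without cracked replicate 3 or without intact replicate 2, only ERF114 was called, and ERF113 then had log2 changes of 1.17 and 1.37. ERF113 was also not called without intact replicate 3 (log2 change 1.40), with a pseudocount of 0.1 or with voom on recovered reads. In all, ERF113 lost its call in 6 of 31 alternative settings. ERF003 was also not called with that pseudocount or with voom, where ERF114 was the 1 call left. Without intact replicate 1, ERF114 and ERF113 were called.

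The response of ERF114 differed between tattering in Golden Hills and cracking in Lost Hills, where the kind of split and the cultivar cannot be told apart. The Golden Hills effect minus the Lost Hills effect was 1.81 (SE 0.28, adjusted p = 0.00214). ABR1 (evm_TU_ptg000013l_478) also differed, by 2.38 (SE 0.54, adjusted p = 0.0396). ABR1 had 4.30, 1.66 and 1.59 FPKM in cracked hulls and 5.67, 0.982 and 0.949 FPKM in intact Lost Hills hulls, so replicate 1 was the highest in both. These 2 of 72 members, 2.78%, stand against 0.994% of all tested genes (0.771% higher and 0.223% lower), and 15 were below 0.05 before adjustment. The ABR1 difference lost its call in 17 of 31 alternative settings. The ERF114 difference lost its call in 1, the pseudocount of 0.1 (limma, adjusted p = 0.0548). For ERF113 and ERF003, called in both cultivars, the differences did not pass the test. With a mean of at least 5 FPKM required, 0 members were called (limma, 9 below 0.05 before adjustment).

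**Figure D2:**
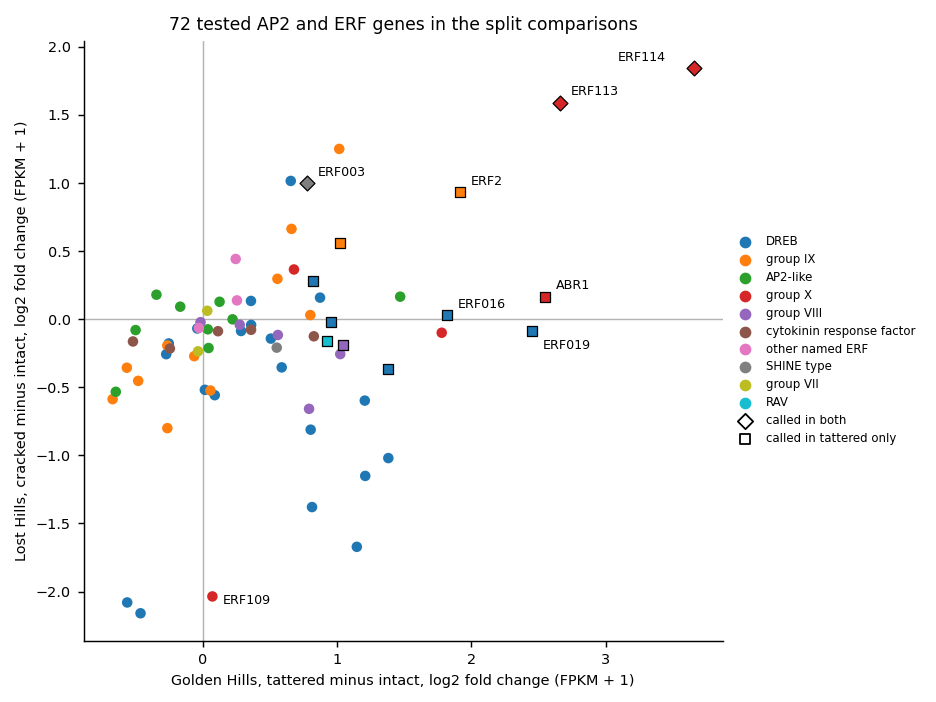
Log2 fold changes of FPKM + 1 for the 72 tested members in tattered against intact Golden Hills hulls (horizontal axis) and in cracked against intact Lost Hills hulls (vertical axis), coloured by subgroup. Diamonds were called in both comparisons and squares in tattered hulls alone. ERF114 lies farthest out, at 3.66 and 1.84, and the 3 diamonds are the called members of cracked hulls.

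Genes around the family in the ethylene pathway were listed by protein name. Of 40 such genes 22 were tested, and in tattered hulls 3 were called higher and 3 lower (27.3%, against 16.6% of all tested genes, 9.29% higher and 7.35% lower), with a median log2 change of -0.04. The 3 higher genes make ethylene. The ACC oxidase gene ACO1 (evm_TU_ptg000019l_1831) had 389 ± 89.7 FPKM in tattered and 128 ± 11 FPKM in intact hulls (SD, n = 3 each, log2 fold change 1.57, adjusted p = 0.0488). An ACC synthase gene named ACS1 (evm_TU_ptg000019l_460) had 6.35 ± 3.31 FPKM in tattered and 0.201 ± 0.107 FPKM in intact hulls, and a second (evm_TU_ptg000010l_334) had 4.08 ± 1.18 and 0.596 ± 0.142 FPKM in the same groups. The 3 lower genes belong to perception and signalling: the receptor ETR1, the kinase CTR1 (95.3 ± 3.12 FPKM in tattered and 160 ± 11.3 in intact hulls) and EIN2. Their log2 changes lay between -0.74 and -0.36. In cracked hulls ACO1 alone was called, at 334 ± 180 FPKM, against 82.5 ± 62.9 FPKM in intact hulls (log2 fold change 2.13, adjusted p = 0.0499).

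The other lists are named for processes that SHINE, DREB and group VII factors are known to act in. All 3 members with a SHINE or WIN1 name were untested. Of 47 cutin and wax genes 24 were tested, and 7 passed the test as higher in tattered hulls with 0 lower (29.2%, against 9.29% higher of all tested genes). In cracked hulls 3 were higher and 0 lower (12.5%, against 1.48% higher of all tested genes). The medians were 0.31 and 0.08 on the log2 scale. The reductase gene FAR3 (evm_TU_ptg000016l_179) had 8.06 ± 0.874 FPKM in tattered and 0.0111 ± 0.0191 FPKM in intact Golden Hills hulls. CYP86A1, KCS1 and KCS20 were also among the 7. CYP86A1 and KCS20 are known in Arabidopsis for suberin, the barrier polymer of roots and wounded tissue. The cutin acyltransferase GPAT6 and CYP86A1 were called in both split comparisons with FAR3. This list shares its KCS, CYP86A and GPAT6 genes with the epidermis markers. Of 21 tested low-oxygen genes 0 were higher and 1, an alcohol dehydrogenase gene, was lower in tattered hulls (log2 change -0.47, limma, adjusted p = 0.0164). That is 4.76%, against 16.6% of all tested genes (7.35% lower). None was called in cracked hulls, against 1.56% of all tested genes. Of 8 tested dehydrin and LEA genes 1 was called higher in tattered hulls (12.5%, against 9.29% higher of all tested genes) and none in cracked hulls.

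More members were called between the ages than in split hulls. Of 72 tested members 26 were called between 133 and 91 d in intact Golden Hills hulls, 14 higher and 12 lower at 133 d. That is 36.1%, against 45.3% of all tested genes (23.2% higher and 22.1% lower). In Lost Hills 18 were called, 9 higher and 9 lower, 25.0% against 31.7% of all tested genes (16% higher and 15.7% lower). Members called in both cultivars numbered 15, which is 57.7% of the Golden Hills and 83.3% of the Lost Hills calls, 7 higher in both and 8 lower in both. The share of called members was below that of all tested genes in both cultivars. Tissue markers also differed between the ages. The 75 epidermis and cuticle markers summed to 2951 to 4477 FPKM at 133 d and 5554 to 6812 FPKM at 91 d in Golden Hills, and to 2148 to 3677 FPKM at 133 d and 4854 to 6700 FPKM at 91 d in Lost Hills. The 23 shell and xylem markers summed to 5.27 to 6.54 FPKM at 133 d and 16.5 to 35.0 FPKM at 91 d in Golden Hills, and to 2.47 to 3.84 FPKM at 133 d and 16.1 to 32.9 FPKM at 91 d in Lost Hills, and 5 of their 6 tested genes were called lower at 133 d in each cultivar. Their part in the age results was not tested. Scaled to TPM or to library totals, the medians of all genes fell by 0.17 and 0.16 on the log2 scale in Golden Hills, and 12 members were called higher and 21 lower under either.

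ERF106 (evm_TU_ptg000004l_956), in the defence-related group IX, changed most. It had 457, 801 and 858 FPKM in Golden Hills hulls at 133 d, against 28.9, 43.8, 21.9 and 18.0 FPKM at 91 d. Lost Hills hulls had 101, 396 and 367 FPKM at 133 d, against 41.7, 56.1, 61.4 and 46.0 FPKM at 91 d. In both cultivars each 133 d library lay above each 91 d library. The log2 fold changes were 4.62 in Golden Hills (SE 0.39, adjusted p = 8.5e-08) and 2.25 in Lost Hills (SE 0.39, adjusted p = 3.2e-04). The difference between the cultivars was 2.37 (SE 0.55, adjusted p = 0.0239). ERF106 was the 1 member of 72 called in that interaction, 1.39%, against 3.29% of all tested genes (2.05% higher and 1.24% lower), and 13 were below 0.05 before adjustment. Without replicate 1 of intact Lost Hills hulls at 133 d, the lowest of its group, the difference was 1.74 with an adjusted p of 0.0389. It was not called without Golden Hills replicate 2 at 133 d or without Lost Hills replicate 3 at 91 d, where 0 members were called (limma, 12 and 10 below 0.05 before adjustment).

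WRI1 (evm_TU_ptg000009l_982), the AP2-like activator of fatty acid synthesis genes in Arabidopsis seeds, had at most 6 reads in any 91 d library. It had 19.1, 21.3 and 28.7 FPKM in Golden Hills at 133 d, against 0.172, 0.120, 0 and 0 FPKM at 91 d. Lost Hills had 3.77, 43.2 and 27.7 FPKM at 133 d, against 0, 0.0564, 0 and 0 FPKM at 91 d, where the 1 value above 0 is 2 reads. The groups did not overlap in either cultivar, and Lost Hills replicate 1 at 133 d lay far below its group. The fitted log2 changes of 4.47 and 4.17 (SE 0.54 each, adjusted p = 4.15e-06 and 2.35e-05) depend on the 1 FPKM added and are no bounds. Split hulls had 17.5, 13.2 and 16.7 FPKM when tattered and 39.1, 13.8 and 7.62 FPKM when cracked, and WRI1 was not called in either split comparison.

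Further members rose with age in both cultivars. RAP2-4 (evm_TU_ptg000013l_100) had 514, 333 and 407 FPKM in Golden Hills at 133 d, against 212, 199, 143 and 201 FPKM at 91 d, and 453, 453 and 409 FPKM in Lost Hills at 133 d, against 211, 229, 251 and 265 FPKM at 91 d. Its log2 changes were 1.13 and 0.88 with no overlap in either cultivar. The DREB genes ERF022 (evm_TU_ptg000001l_3930) and ERF023 (evm_TU_ptg000001l_4468) rose by 1.28 and 1.81 in Golden Hills and by 2.07 and 1.86 in Lost Hills on the log2 scale. Group IX ERF098 (evm_TU_ptg000022l_2219) rose by 1.33 and 1.89, and a gene named for AP2, the Arabidopsis floral identity gene, by 0.80 and 0.53. SHINE-type ERF003 (evm_TU_ptg000012l_543) was called in Golden Hills alone, at 11.4 ± 4.53 FPKM at 133 d and 2.83 ± 1.00 FPKM at 91 d (log2 fold change 1.67, adjusted p = 3.4e-05), and that difference between cultivars did not pass the test. ERF1B and PTI6 were likewise called higher in Golden Hills, by 1.63 and 1.32.

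**Figure D3:**
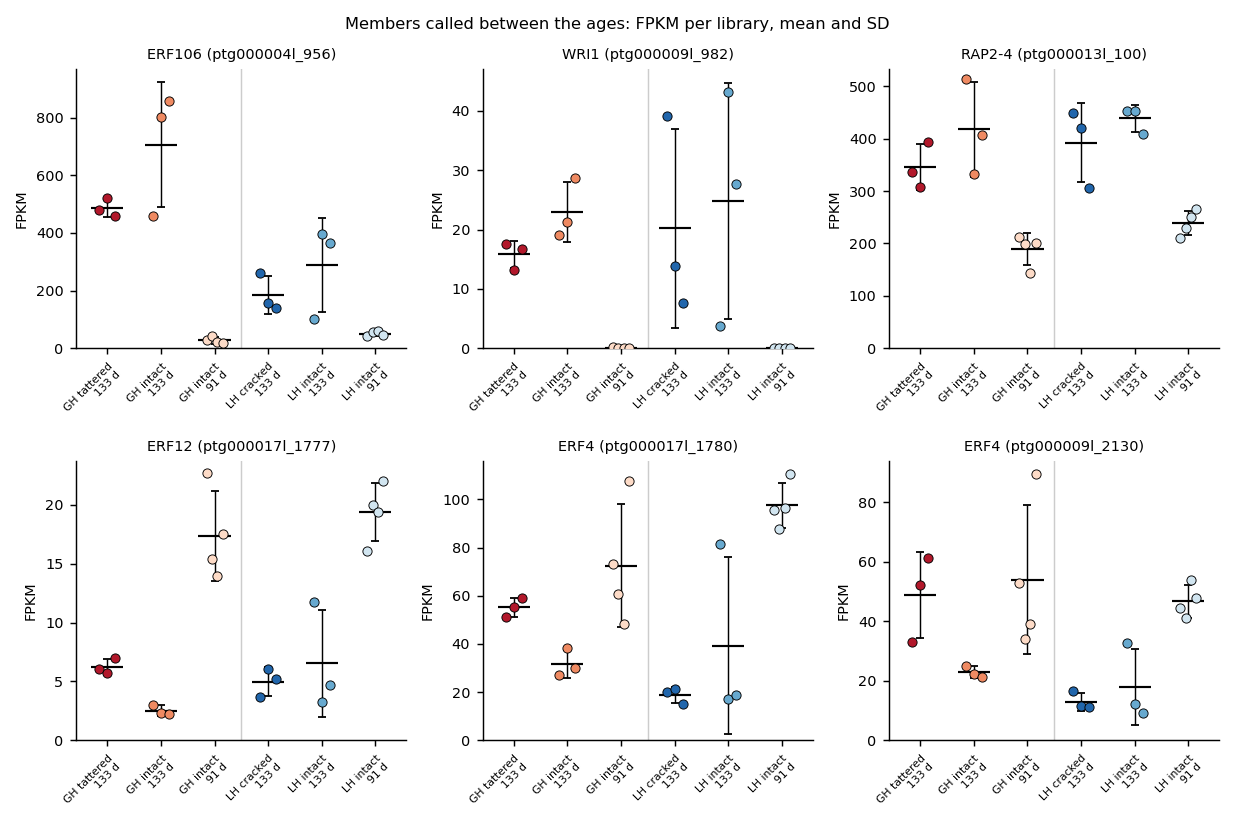
FPKM of 6 members called between the ages, 1 point per library in 6 groups, with split hulls beside intact hulls of 133 and 91 d. Horizontal lines are group means and bars are 1 SD, with bars ending at 0 where they would pass below it. ERF106, WRI1 and RAP2-4 lie higher at 133 than at 91 d, and ERF12 and both ERF4 genes lie lower in intact hulls.

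Of 6 tested group VIII genes, named for their repressors, 3 fell with age in each cultivar. Of all tested genes, 22.1% were called lower at 133 d in Golden Hills and 15.7% in Lost Hills. ERF12 (evm_TU_ptg000017l_1777) had 3.04, 2.33 and 2.21 FPKM in Golden Hills at 133 d, against 22.7, 15.4, 13.9 and 17.5 FPKM at 91 d, and 11.7, 3.26 and 4.66 FPKM in Lost Hills at 133 d, against 16.1, 19.97, 19.4 and 22.1 FPKM at 91 d. The log2 changes were -2.37 and -1.59 (adjusted p = 1.9e-06 and 2.5e-04). An ERF4 gene (evm_TU_ptg000017l_1780) had 27.0, 38.3 and 30.1 FPKM in Golden Hills at 133 d, against 73.2, 60.6, 48.4 and 107.8 FPKM at 91 d, and changed by -1.12 there and by -1.67 in Lost Hills. The Golden Hills call was lost without replicate 1 or 3 at 133 d or without replicate 4 at 91 d. Replicate 1 of Lost Hills at 133 d stood at 81.6 FPKM beside 17.1 and 18.8 FPKM. A second ERF4 gene (evm_TU_ptg000009l_2130) changed by -1.11 and -1.53. The third, evm_TU_ptg000019l_2157, went the other way in Golden Hills, with 106.7, 144 and 139 FPKM at 133 d, against 107.4, 58.0, 32.7 and 90.8 FPKM at 91 d (log2 fold change 0.96, SE 0.34, adjusted p = 0.0299). It was the 1 group VIII gene called higher at 133 d.

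Other subgroups held called genes in both directions. Among 9 tested AP2-like genes 2 were higher and 2 lower at 133 d in each cultivar, and among 25 DREB genes 4 were higher and 2 lower in each. Among 5 cytokinin response factors 1 was higher and 3 lower in Golden Hills, and 0 higher and 1 lower in Lost Hills. The shares of all tested genes were 23.2% higher and 22.1% lower in Golden Hills, and 16% and 15.7% in Lost Hills. The AP2-like gene At1g16060 (evm_TU_ptg000012l_402), a relative of WRI1, had 0.577 ± 0.359 FPKM at 133 d and 5.72 ± 2.46 FPKM at 91 d in Golden Hills (log2 change -2.04), and 0.786 ± 0.250 FPKM at 133 d and 2.58 ± 0.875 FPKM at 91 d in Lost Hills (log2 change -0.98). AIL5, an AINTEGUMENTA-like growth gene, had no read in any intact Golden Hills library at 133 d, against 1.02, 1.80, 3.91 and 1.99 FPKM at 91 d. With a floor of 3 reads per library it was at least 25.4-fold lower at 133 d. In Lost Hills it had 0.251 ± 0.256 FPKM at 133 d and 1.84 ± 0.530 FPKM at 91 d. DREB2A (evm_TU_ptg000009l_126), the Arabidopsis drought and heat regulator, had 6.87 ± 2.37 FPKM at 133 d and 11.3 ± 2.38 FPKM at 91 d in Golden Hills (log2 change -0.68), and 5.56 ± 0.694 FPKM at 133 d and 14.9 ± 4.20 FPKM at 91 d in Lost Hills (log2 change -1.24). Its Golden Hills change was -0.40 and not called without replicate 1 at 133 d (adjusted p = 0.146), and it was not called in 6 of 32 alternative settings, with adjusted p of 0.0538 to 0.146. In group IX, ERF5 (evm_TU_ptg000010l_1004) was lower in Lost Hills, at 2.56 ± 0.509 FPKM at 133 d and 5.08 ± 1.48 FPKM at 91 d (log2 change -0.75, adjusted p = 0.0146), and was not called without replicate 2 or 3 at 133 d. The cytokinin response factor CRF2 was lower at 133 d in both cultivars (log2 changes -0.90 and -0.81), and CRF4 in Golden Hills (-1.12). Members called in both the tattering and the age comparison of Golden Hills, which share the intact 133 d libraries, included ERF12, ERF023 and ERF003 (evm_TU_ptg000001l_2038). ERF12 changed by 1.05 with tattering and -2.37 with age, ERF023 by 1.38 and 1.81, and this ERF003 by 0.78 and 0.95.

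Between intact hulls of the cultivars at 133 d, 9 of 72 tested members were called, 4 higher and 5 lower in Golden Hills, 12.5%, against 16.8% of all tested genes (8.88% higher and 7.91% lower). At 91 d there were 2, 1 in each direction, 2.78% against 5.1% of all tested genes (2.55% higher and 2.56% lower). Scaling to TPM or to library totals lowered the median of all genes by 0.10 and 0.12 on the log2 scale at 133 d, and 4 and 3 members were then called higher and 9 lower under either. Quantile normalization gave 2 higher and 1 lower at 91 d. EREBP1 (evm_TU_ptg000019l_870), whose protein match is a rice ERF, was lower in Golden Hills at both ages. The gene was placed in group IX by the number in that name alone, and its subgroup was not checked by sequence. It had 28.9, 28.8 and 24.8 FPKM in Golden Hills at 133 d, against 105, 71.6 and 53.5 FPKM in Lost Hills. At 91 d it had 22.2, 23.3, 16 and 15.8 FPKM in Golden Hills, against 53.9, 25.6, 45.3 and 72.3 FPKM in Lost Hills. The lowest Lost Hills value, 25.6 FPKM, came from replicate 2, the library with 36.9% of the Golden Hills marker level. The log2 differences were -1.40 at 133 d (adjusted p = 0.00527) and -1.24 at 91 d (adjusted p = 0.0103), and -1.60 at 91 d without replicate 2 of both cultivars.

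Most other cultivar differences at 133 d were not called once 1 library was left out. ERF106 was higher in Golden Hills by 1.47 on the log2 scale (adjusted p = 0.0217), and PTI6 (evm_TU_ptg000012l_133), named for a tomato partner of the Pto resistance kinase, by 0.81, with 51.2, 41.2 and 32.8 FPKM in Golden Hills, against 23.1, 19.3 and 27.2 FPKM in Lost Hills. ERF013 and ERF003 (evm_TU_ptg000001l_2038) were also higher in Golden Hills. ERF019, ABR1, ERF061 and ERF12 were lower, with log2 differences of -2.02, -1.39, -0.98 and -0.94. ERF019 had 0, 1.48 and 1.27 FPKM in Golden Hills, against 18.0, 4.80 and 2.37 FPKM in Lost Hills. Without Lost Hills replicate 1, 5 members were called, of which 2 were among the 9: EREBP1 and ERF013. The difference of ERF106 was then 0.83, that of ERF12 -0.48 and that of ERF019 -1.31, while that of PTI6 was 0.81 as before (adjusted p = 0.0687). PTI6 was also not called without Lost Hills replicate 2 or Golden Hills replicate 1 or 2. At 91 d the DREB gene ERF034 was higher in Golden Hills, with 2.37, 2.08, 4.66 and 4.77 FPKM, against 2.06, 1.72, 1.63 and 1.24 FPKM in Lost Hills (log2 difference 0.70, adjusted p = 0.0351).

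Replicates of a group were spread widely in this family, which is given as a description with no test. Among 52 members with a mean of at least 5 FPKM, the median within-group SD was 0.50 on the log2(FPKM + 1) scale, against 0.20 for 13385 genes with such a mean. An SD over 0.75 was found in 15 members, 28.8%, against 1.82% of those genes. The 15 were named after their values were seen: DREB1C and DREB1D (cold and drought regulators of the CBF type in Arabidopsis), 2 genes named ERF026, 3 named ERF017, ERF016, ERF019, ERF109, ERF110, ERF5 (evm_TU_ptg000004l_954), ERF.C.3, WRI1 and AP2-3.

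In 4 libraries their median deviation from the group mean was 0.82 or more on the log2 scale, and in the other 16 it was 0.26 or less. It was 1.32 in replicate 1 of intact Lost Hills hulls at 133 d, where 14 of 15 lay above their group mean, and 0.89 in replicate 1 of cracked hulls, where 13 did. It was 1.18 in replicate 4 of Golden Hills at 91 d (11 of 15 above) and 0.82 in replicate 4 of Lost Hills at 91 d (10 of 15). As many lay above the mean by less in tattered replicates 2 and 3 (12 and 11 of 15) and in replicate 2 of intact Golden Hills hulls at 133 d (11). DREB1D (evm_TU_ptg000004l_733) had 34.03 FPKM in that intact Lost Hills replicate, beside 2.53 and 1.34 FPKM in the other two, and 37.4 FPKM in Lost Hills replicate 4 at 91 d, beside 3.17 to 5.0 FPKM. DREB1C (evm_TU_ptg000010l_1279) had 39.0 FPKM in the first of these, beside 3.63 and 2.504 FPKM, and 33.9 FPKM in Golden Hills replicate 4 at 91 d, beside 3.08 to 4.98 FPKM. ERF026 (evm_TU_ptg000004l_732) reached 99.0 FPKM in the intact Lost Hills replicate, beside 8.67 and 5.28 FPKM. WRI1 was the exception there, lowest in that library. What set these libraries apart was not tested.

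**Figure D4:**
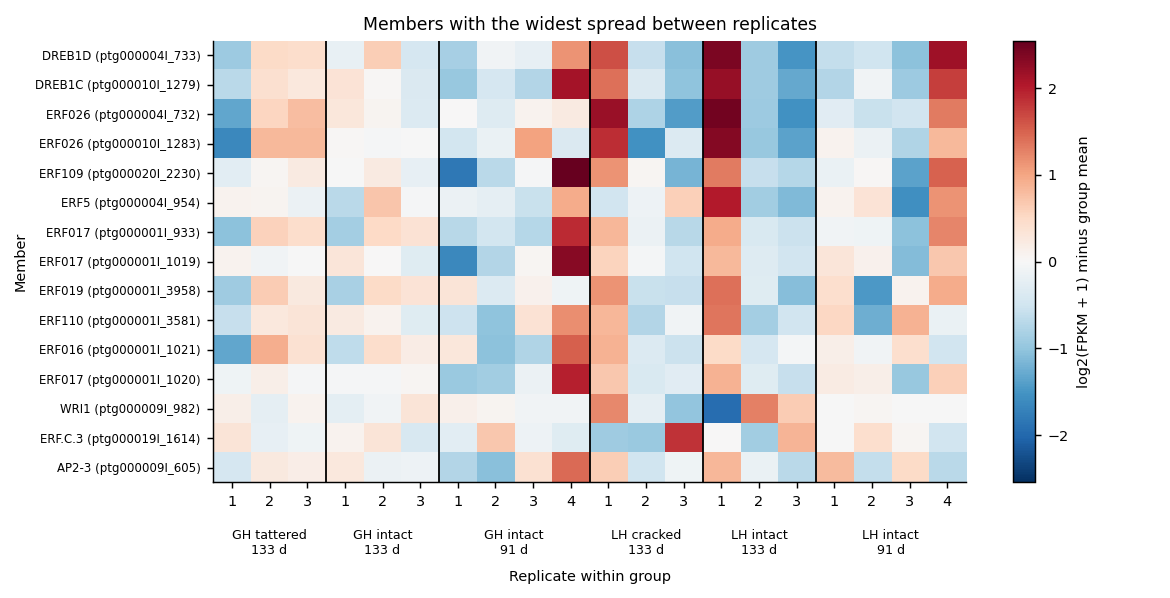
Deviation of log2(FPKM + 1) from the group mean for the 15 members with a within-group SD over 0.75, by library, with replicates numbered within each group. Red is above and blue below the group mean. All 9 DREB members are red in replicate 1 of cracked and of intact Lost Hills hulls at 133 d, and in replicate 4 at 91 d 7 of 9 are red in Golden Hills and 8 of 9 in Lost Hills.

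Members sat in runs. Taking genes within 50 kb of each other, 39 of the 121 members fell in 15 runs, and 13 runs held a single subgroup. The largest was 5 group IX genes on contig ptg000004l between 13045709 and 13087635: ERF2, ERF5, ERF105, a second ERF5 and ERF106. Their levels differed widely. In intact Golden Hills hulls at 133 d, ERF106 averaged 705 ± 217 FPKM, the first ERF5 (evm_TU_ptg000004l_952) 59.9 ± 35.8, ERF105 12.4 ± 4.44, the second ERF5 (evm_TU_ptg000004l_954) 5.37 ± 3.00 and ERF2 1.07 ± 0.238 (SD, n = 3). ERF106 alone of the 5 was called between the ages, and ERF2 alone was called in tattered hulls. How reads shared by similar copies were counted is not given in the sources used here, so levels within such runs are uncertain.

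**Figure D5:**
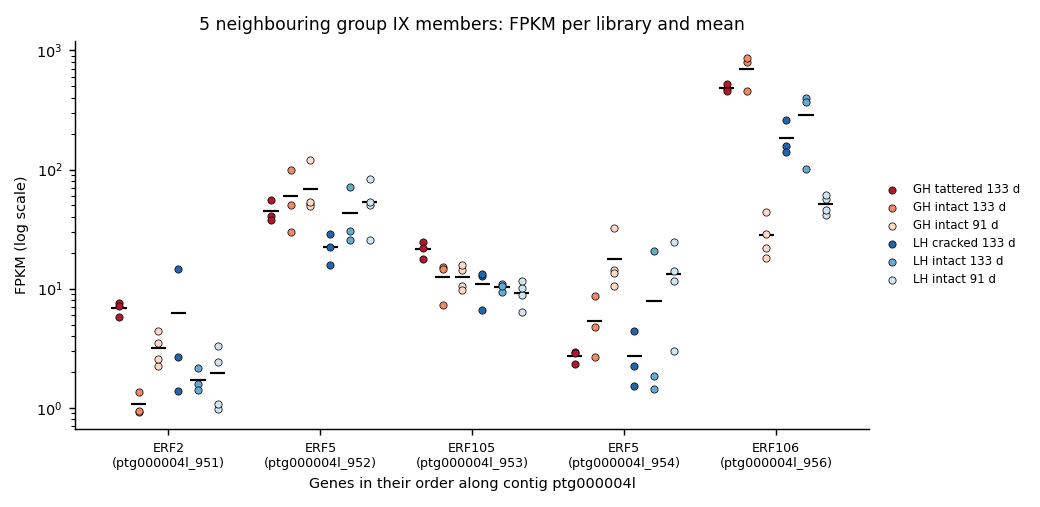
FPKM on a log axis of the 5 neighbouring group IX members in their order along the contig, 1 point per library with group means as lines, in 6 groups. ERF106 reaches 858 FPKM and lies at 61.4 FPKM or less in every 91 d library, while ERF2 lies at 14.7 FPKM or less in all libraries.

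Over the 6 group means on the log2(FPKM + 1) scale, the member most like ERF114 was ERF020, a DREB gene of low level (Pearson r = 0.98), followed by ERF113 (r = 0.97). ERF020 (evm_TU_ptg000001l_3959) averaged 1.205 FPKM in tattered and 0.187 FPKM in intact Golden Hills hulls and was not called (adjusted p = 0.0570). The member most like ERF106 was ERF003 (evm_TU_ptg000012l_543, r = 0.94), and the one most like WRI1 was RAP2-4 (evm_TU_ptg000013l_100, r = 0.96). These are descriptions over 6 points that share the groups.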

How the data were processed

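Gene expression was measured by RNA sequencing of poly(A)-selected RNA from whole hulls, with dUTP second strands, per the labels' protocols. The authors deposited 1 table of FPKM values with gene lengths and protein matches. The submitters' processing notes name HISAT2 2.0.5, StringTie 1.3.3b and featureCounts 1.5.0-p3. The genome build and the handling of shared reads are not given in the sources used here. FPKM times gene length came out as whole multiples of 1 step per library (100% within 0.01), which gave reads. These cover counting error only. Groups came from the sample titles.

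Tests used limma 3.58.1 (R 4.3.3, two-sided, eBayes with a trend) on log2(FPKM + 1), for genes that reached 1 FPKM in 3 or more libraries, with 1 fit over 20 libraries in 6 groups and no replicate block. There were 6 comparisons between pairs of groups and 2 interactions, tested on simulated data first. Members, gene lists and subgroups were chosen with earlier results of these data known. Named genes follow a rule: in each split comparison up to 8 called members per direction by size of change, in each age or cultivar comparison up to 5, where the higher group averaged 5 FPKM or more, up to 3 per interaction, the 8 most abundant members and the highest of each subgroup. Where fewer than 5 were called in a split, the 5 with the smallest p were added. Other members are named to complete a count of called members, a run of neighbours, a group X or group VIII set, or the spread list, after their values were seen. Alternatives were another pseudocount, filters, scalings, voom on the recovered reads, other fits, and each library left out.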

Additional observations from a re-analysis of the deposited data

Results flagged for a closer look

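Of groups of 4 libraries, 72 were examined over the 36 members named by the rule. In 4 a library lay far from the others, by a cut that chance passes in 1 of 20. These groups share libraries, and the 36 members leave out DREB1C, DREB1D and ERF109. The count therefore cannot be read against that rate. ERF017 (evm_TU_ptg000001l_1019) had 223 FPKM in Golden Hills replicate 4 at 91 d, beside 13.5 to 45.5 FPKM in the other replicates. Its neighbour ERF017 (evm_TU_ptg000001l_1020) had 124 FPKM in the same library, beside 15.5 to 27.7 FPKM. WRI1 (evm_TU_ptg000009l_982) had 0.0564 FPKM in Lost Hills replicate 2 at 91 d and 0 in the other replicates, and ERF.C.3 (evm_TU_ptg000019l_1614) had 32.3 FPKM in Golden Hills replicate 2 at 91 d, beside 15.6 to 18.0 FPKM.

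Tattering in Golden Hills and cracking in Lost Hills differed in their effects on ERF114 (evm_TU_ptg000019l_1188, Golden Hills minus Lost Hills 1.81 on the log2 scale) and ABR1 (2.38). The kind of split and the cultivar cannot be told apart there. The effect of age on ERF106 differed between the cultivars (2.37).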

How the results depend on the processing

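The 45 log2 changes of named members gave 1429 values under 32 alternatives, of which 0 changed sign, 117 lost their call and 7 gained one. Counts of called members moved by more than 1.5 times as follows. Array weights gave 23 for tattering, 28 for age in Lost Hills, 18 and 6 between cultivars at 133 and 91 d, and 8 for the age interaction. Requiring a log2 change of at least 1 left 17 and 11 for age in Golden Hills and Lost Hills, and 5 and 1 between cultivars at 133 and 91 d. A mean of at least 5 FPKM left 7 for tattering, 0 for cracking, 1 between cultivars at 91 d and 0 for the split interaction, where it tests 52 members. Only the groups compared gave 0 for cracking, 2 and 1 between cultivars at 133 and 91 d, 1 for the split and 2 for the age interaction. A pseudocount of 0.1 and voom each gave 1 for cracking, 1 between cultivars at 91 d and 1 for the split interaction. That interaction also fell to 1 with no filter, TPM, library totals, and without replicate 2 of both 91 d groups. Quantile normalization gave 2 for the age interaction. The cause of these moves was not tested.

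With 1 library left out, counts ran from 4 to 19 for tattering, 1 to 5 for cracking, 21 to 31 and 15 to 20 for age in Golden Hills and Lost Hills, 5 to 11 and 1 to 4 between cultivars at 133 and 91 d, 1 to 3 for the split and 0 to 3 for the age interaction. Scaling by library totals called 11 members higher and 1 lower in tattered hulls.

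With the replicate block, counts were 10 for tattering, 3 for cracking, 23 and 16 for age, 8 and 2 between cultivars, and 1 for each interaction. Over all groups pooled, same-numbered libraries of different groups deviated from their group means with correlations of -0.334 to 0.223 (median -0.033, 46 pairs). For different numbers the correlations were -0.258 to 0.333 (median 0.018, 120 pairs). Pooled values cannot show whether numbers pair split and intact hulls of 1 cultivar at 133 d. Of the 9 DREB members with the widest spread, all 9 lay above the group mean in replicate 1 of cracked and of intact Lost Hills hulls. In replicates 2 and 3 of both groups 0 did. In Golden Hills replicate 1 it was 1 of 9 in tattered and 4 of 9 in intact hulls at 133 d. At about 17.6 reads per FPKM, members near 1 FPKM carry large counting error.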
